A study of Mus musculus with 11 samples.

Results

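Retinas of streptozotocin (STZ)-treated mouse pups from dams fed a defined fatty-acid diet were compared with retinas of STZ-treated pups for which the labels name no such diet. Unique molecular identifiers (UMIs), which count RNA molecules, were summed per gene over all cells with more than 300 genes, so that each mouse gave 1 value per gene. The 8 STZ-treated mice of the 11 mice in the series were used, with 5 on the diets (2 on the ω-3 diet and 3 on the ω-6 diet) against 3 STZ mice. All were C57BL/6J pups that received streptozotocin by daily intraperitoneal injection from just after birth and whose retinas were taken at postnatal day 10. The study used pups of both sexes, and by their sex-linked RNA (below) the 2 groups differed in the share of females. The ω-3 diet supplied docosahexaenoic and eicosapentaenoic acid and the ω-6 diet supplied arachidonic acid, in isocaloric defined feeds with safflower oil given to the nursing dams. Retinal cells were dissociated and captured in droplets with inDrop v3.

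The STZ mice were littermates of the vehicle-treated controls (n = 3), and the mice on both diets were littermates from another litter that was divided between 2 cages. The feed of the STZ mice's dam is not stated. Diet, litter, dam and any difference in the handling of the litters therefore cannot be told apart in any value below. The labels also give the free text of the mice on the diets a term that the STZ mice lack and whose meaning is not stated, and the free text of ω-6 diet replicates 2 and 3 does not name STZ, while their treatment field does. Nothing marks when each retina was dissociated or sequenced.

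Streptozotocin destroys the insulin-producing beta cells, and in newborn pups the high blood glucose that follows is used as a model of the first phase of retinopathy of prematurity (Phase I ROP), in which retinal vessels grow too slowly. Long-chain ω-3 and ω-6 fatty acids reach pups through milk, docosahexaenoic acid is the chief polyunsaturated fatty acid of photoreceptor outer segment membranes, and fatty acids act as ligands of nuclear receptors such as the PPARs. At this age rods are still maturing, outer segments are forming and bipolar cells are making their synapses.

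The sums held 2563064 to 3486742 UMIs in the STZ mice and 4356305 to 6516478 in the mice on the diets, and the median UMIs per cell were 1003.5 to 1190 against 1386.5 to 2215. Xist, the RNA made from the inactive X chromosome, was above 100 CPM (UMI counts scaled to a common library total) in 3 of 5 mice on the diets and in 0 of 3 STZ mice. It was 703.9 CPM in ω-3 diet replicate 1, 738.7 and 686.0 CPM in ω-6 diet replicates 1 and 3, and 1.1 to 2.7 CPM in the other mice. Ddx3y, a gene of the Y chromosome, was at 83.6 to 103.3 CPM in the STZ mice. It was at 92.1 and 86.3 CPM in replicate 2 of the ω-3 and ω-6 diets, and at 0.985 to 2.28 CPM in the mice with Xist RNA. By both RNAs all 3 STZ mice were male and 3 of 5 mice on the diets were female, so that sex differed in part with diet. In a principal component analysis the first component held 25.8% of the variance. The STZ mice lay at -29.97 to -20.01 on it, the mice on the diets without Xist RNA at -10.04 and -4.02, and those with it at 22.44 to 37.51. UMIs of the mitochondrial genome were 8.249%, 3.605% and 4.504% of the total in STZ replicates 1, 2 and 3 and 6.906% to 8.605% in the mice on the diets. Among the 16828 cells, 816 barcodes occurred in more than 1 mouse, with at most 52 shared by a pair. The summed markers of each cell type were all detected where listed, except that 8 of 16 lens markers were in the data.

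Across the whole retina the mice on the diets differed from the STZ mice in 47 of 17894 genes tested, which is 0.263% of them, with 23 higher (0.129%) and 24 lower (0.134%; edgeR's quasi-likelihood test, Benjamini-Hochberg adjusted p under 0.05). The 5 mice on the diets and the 3 STZ mice did not overlap in any of the 47 genes, and they did not overlap in 10.1% of all genes tested. Of all genes, 2412 had an unadjusted p under 0.05, and the median difference was 0.03 on the log2 scale. Differences over 1 on the log2 scale were found in 13 of the 47. The number of calls depended strongly on single mice. It was 30, 1 and 9 without STZ replicates 1, 2 and 3, 6 and 116 without ω-3 diet replicates 1 and 2, and 1, 11 and 2 without ω-6 diet replicates 1, 2 and 3. The direction of all 47 stayed as it was in each of these fits. Since the groups did not overlap in any of the 47, leaving out 1 mouse left little room for another outcome. With a term for the presence of Xist RNA, chosen after the data were seen, 0 genes passed and 1596 had an unadjusted p under 0.05. The 3 STZ mice against the 2 mice on the diets without Xist RNA gave 39 calls, of which 10 were among the 47. With only the cells of clusters that took a cell type name (below), also chosen after the data were seen, 15 genes passed, all among the 47.

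A transcription factor and an outer segment gene of photoreceptors, Nr2e3 and Tulp1, were higher in the mice on the diets. Nr2e3 encodes a nuclear receptor that activates rod genes and represses cone genes in rods (ENSMUSG00000032292, chr9:59942771-59960659 in GRCm38). It was at 638, 620.0 and 1014 CPM in the STZ mice, at 1515 and 1870 CPM on the ω-3 diet and at 1953, 1617 and 1633 CPM on the ω-6 diet. Every mouse on a diet was above every STZ mouse, and STZ replicate 3 was the highest of its group. The means were 1718 ± 184.8 CPM (SD, n = 5) and 757.2 ± 222.2 CPM (SD, n = 3), a rise of 2.27-fold (log2 1.18 ± 0.164 SE, adjusted p = 0.0273). In the control mice, scaled with all 11 mice, Nr2e3 was at 143 to 432 CPM. Rods were 9.53% to 19.02% of cells in the control mice and 37.44% to 48.18% in the STZ mice. The 13 rod markers summed to 2335 to 5000 CPM in the control mice and 14120 to 19090 CPM in the STZ mice. The part of such unlike cell shares in the control values, here and below, was not tested.

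Tulp1, which encodes a protein needed for the transport of proteins into outer segments (chr17:28351515-28365222), was at 185, 193 and 205 CPM in the STZ mice. It was at 289 and 296 CPM on the ω-3 diet and at 352, 298 and 292 CPM on the ω-6 diet. The groups were apart and the STZ mice were close to one another, and the rise was 1.57-fold (log2 0.65 ± 0.110, adjusted p = 0.0312). The control mice had 74.9 to 125 CPM. Impdh1, the enzyme that limits guanine nucleotide synthesis and carries mutations in a form of retinitis pigmentosa, rose by 0.67 (adjusted p = 0.0473).

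The wider photoreceptor lists did not show the same number of calls. For the counts of these and all later whole-retina lists, the background is 2412 of 17894 genes at an unadjusted p under 0.05. DESeq2, the other tool run, called 291 of all genes, 111 higher and 180 lower. Of 15 photoreceptor transcription factors tested, 1 rose (Nr2e3) and none fell, with a median of 0.26, against 0.03 over all genes. DESeq2 called 4 of the 15 higher (Otx2, Nr2e3, Nrl and Samd11). Of 20 genes of outer segment structure and the visual cycle, 1 rose (Tulp1), with a median of 0.18. Among 21 rod phototransduction genes 0 were called, 6 had an unadjusted p under 0.05, DESeq2 called 2 higher, and the median was 0.17. Among 11 cone phototransduction genes 0 were called, 6 had an unadjusted p under 0.05, DESeq2 called 3 lower (Pde6c, Slc24a2 and Opn1sw), and the median was -0.34. The 13 rod markers summed to 17790 to 24080 CPM in the mice on the diets and 14120 to 19090 CPM in the STZ mice, and the 10 cone markers to 1427 to 1574 CPM and 1562 to 2021 CPM. In such sums over a retina, fewer cells of a type and less RNA per cell cannot be told apart.

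**Figure D1:**
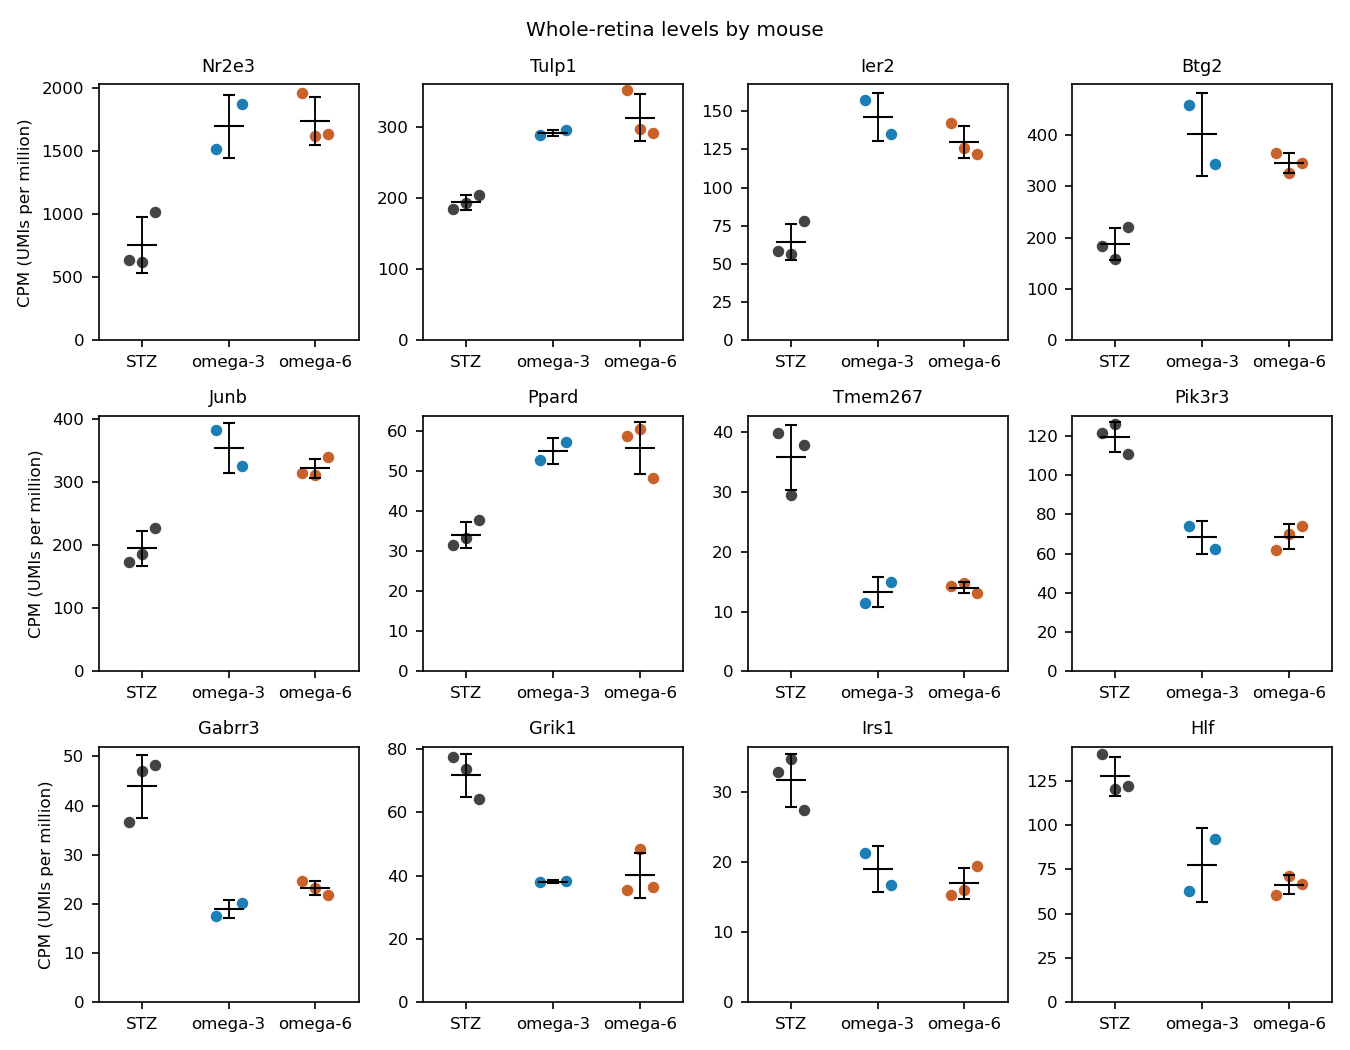
CPM of 12 called genes in each of the 8 mice. The vertical axes are CPM and start at 0, each point is a mouse of the STZ, ω-3 diet or ω-6 diet group, and bars give the mean ± SD of each group. In all 12 genes the 5 mice on the diets lie on one side of the 3 STZ mice, for which they were chosen, as for Nr2e3 (1515 to 1953 against 620.0 to 1014 CPM) and Tmem267 (11.5 to 15 against 29.6 to 39.9 CPM).

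Immediate early genes, which cells transcribe within minutes of a stimulus such as activity, growth factors or tissue handling, were the list with the most called rises by count. A count of calls also depends on the size of a list. Of 37 tested, 3 rose (Btg2, Junb and Ier2) and none fell, and 16 had an unadjusted p under 0.05. The values were positive in 27 and negative in 10, down to -0.89, with a median of 0.27. DESeq2 called 6 higher and 3 lower. Ier2 encodes a nuclear protein induced by growth factors (chr8:84661331-84662852). It was at 58.8, 56.6 and 77.8 CPM in the STZ mice, at 157 and 135 CPM on the ω-3 diet and at 142, 126 and 122 CPM on the ω-6 diet. No mice overlapped, and the rise was 2.11-fold (log2 1.08 ± 0.140, adjusted p = 0.0230), with 6.00 to 36.2 CPM in the control mice.

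Btg2, which restrains cell division (chr1:134075170-134079120), was at 185, 159 and 220.1 CPM in the STZ mice, at 458 and 344 CPM on the ω-3 diet and at 365, 326 and 345 CPM on the ω-6 diet. All mice on the diets were above all STZ mice, with ω-3 diet replicate 1 the highest, and the rise was 1.95-fold (log2 0.97 ± 0.143, adjusted p = 0.0274). The control mice had 13.2 to 33.5 CPM. Junb, a subunit of the transcription factor AP-1 (chr8:84974484-84978718), was at 173, 185 and 227 CPM in the STZ mice against 383 and 326 CPM on the ω-3 diet and 315, 312 and 339.7 CPM on the ω-6 diet. Its groups did not overlap either, and it rose 1.71-fold (log2 0.78 ± 0.123, adjusted p = 0.0274), with 37.7 to 51.9 CPM in the control mice.

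Egr1 and Fos, both immediate early transcription factors named by their values in cell classes, had the same direction without passing the test. Egr1 was at 309, 285 and 533 CPM in the STZ mice, 1096 and 1059 CPM on the ω-3 diet and 781, 609.8 and 720.2 CPM on the ω-6 diet. The groups did not overlap, and the difference was 1.18 on the log2 scale (adjusted p = 0.0504). Fos was at 409.8, 393 and 599 CPM in the STZ mice and 607 to 864 CPM in the mice on the diets, a difference of 0.65 (adjusted p = 0.0950).

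Promoters are shown for Nr2e3, the largest rise among calls at a mean of at least 20 CPM, and for Btg2, Junb and Fos. Fos was not called in the whole retina. The promoters are the 250 bases before the transcription start from RefSeq (GRCm38.p6), 5′ to 3′ on the strand of the gene. Capitals mark the cyclic AMP response element (CRE, TGACGTCA), the only match among the 7 motifs searched in these 4 windows.
Fos, chr12:85473640-85473889, plus strand: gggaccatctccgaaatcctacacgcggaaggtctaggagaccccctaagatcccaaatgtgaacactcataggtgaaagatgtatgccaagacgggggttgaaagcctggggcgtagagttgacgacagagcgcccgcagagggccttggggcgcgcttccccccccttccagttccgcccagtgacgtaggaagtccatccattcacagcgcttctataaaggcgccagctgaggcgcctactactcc
Btg2, chr1:134079156-134079405, minus strand: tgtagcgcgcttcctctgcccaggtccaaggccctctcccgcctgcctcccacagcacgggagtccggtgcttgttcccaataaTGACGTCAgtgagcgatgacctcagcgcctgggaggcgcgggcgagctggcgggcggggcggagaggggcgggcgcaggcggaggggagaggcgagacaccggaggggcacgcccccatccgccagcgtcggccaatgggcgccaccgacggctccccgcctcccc
Junb, chr8:84978749-84978998, minus strand: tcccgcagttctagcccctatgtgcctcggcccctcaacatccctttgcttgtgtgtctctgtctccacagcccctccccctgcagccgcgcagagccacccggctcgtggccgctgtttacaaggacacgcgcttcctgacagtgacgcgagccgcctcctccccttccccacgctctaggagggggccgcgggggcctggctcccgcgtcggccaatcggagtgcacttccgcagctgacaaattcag
Nr2e3, chr9:59950080-59950329, minus strand: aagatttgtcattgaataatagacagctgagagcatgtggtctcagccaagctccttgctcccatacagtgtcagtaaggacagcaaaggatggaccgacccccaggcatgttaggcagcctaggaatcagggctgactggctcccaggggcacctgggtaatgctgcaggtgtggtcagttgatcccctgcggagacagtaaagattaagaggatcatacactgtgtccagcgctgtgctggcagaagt

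Promoters of 33 of the 47 called genes were in the table, and Ier2 was not matched. On both strands, TGACGTCA was found before Btg2 and Hlf, against 1.55% of all 32851 promoters. The AP-1 motif TGANTCA was found before Diras2 and Zeb2 (6.75% of all), the E-box CACGTG before Dnajb9, Irs1 and Rragb (6.02%), and the CRX motif TAATCC before Chrm2 and Msl3l2 (6.25%). The CArG box of serum response factor (1.47% of all), the heat shock element (153 of the 32851) and the sterol response element (24 of the 32851) were in none of the 33 windows.

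Heat shock chaperones, which refold proteins after heat and other stress, had negative values without a call in the whole retina. Of 19 tested, 0 passed, 13 had an unadjusted p under 0.05, DESeq2 called 2 lower (Chordc1 and Dnaja1), and all 19 fitted values were negative with a median of -0.46. Hspa1a, an inducible form of the chaperone Hsp70, was at 331.5, 24.8 and 30.5 CPM in the STZ mice and 15.2 to 21.2 CPM in the mice on the diets (log2 -2.85, adjusted p = 0.0700). STZ replicate 1 was far above all other mice, and without it 16 of the 19 values were negative, with a median of -0.26. Of 31 genes of the unfolded protein response, 1 fell. It was Dnajb9, a chaperone cofactor of the endoplasmic reticulum, at 82.0 to 96.6 CPM in the STZ mice and 48.1 to 66.3 CPM on the diets (log2 -0.69, adjusted p = 0.0473).

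STZ replicate 1 also stood apart in the 13 proteins encoded by the mitochondrial genome. None was called in the fit of all 8 mice, 11 had an unadjusted p under 0.05, DESeq2 called 1 (mt-Nd6), and the median was 0.64. Without STZ replicate 1, 8 of the 13 were called higher and the median was 1.07. For the nuclear subunits the values were smaller. Among 37 complex I subunits 0 were called, 2 had an unadjusted p under 0.05 and the median was 0.07, and among 40 subunits of complexes II to V the numbers were 0 and 3 with a median of 0.07. DESeq2 called none of either list. For 81 cytosolic ribosomal proteins (0 called, 7 at an unadjusted p under 0.05, DESeq2 0) the median was 0.09.

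**Figure D2:**
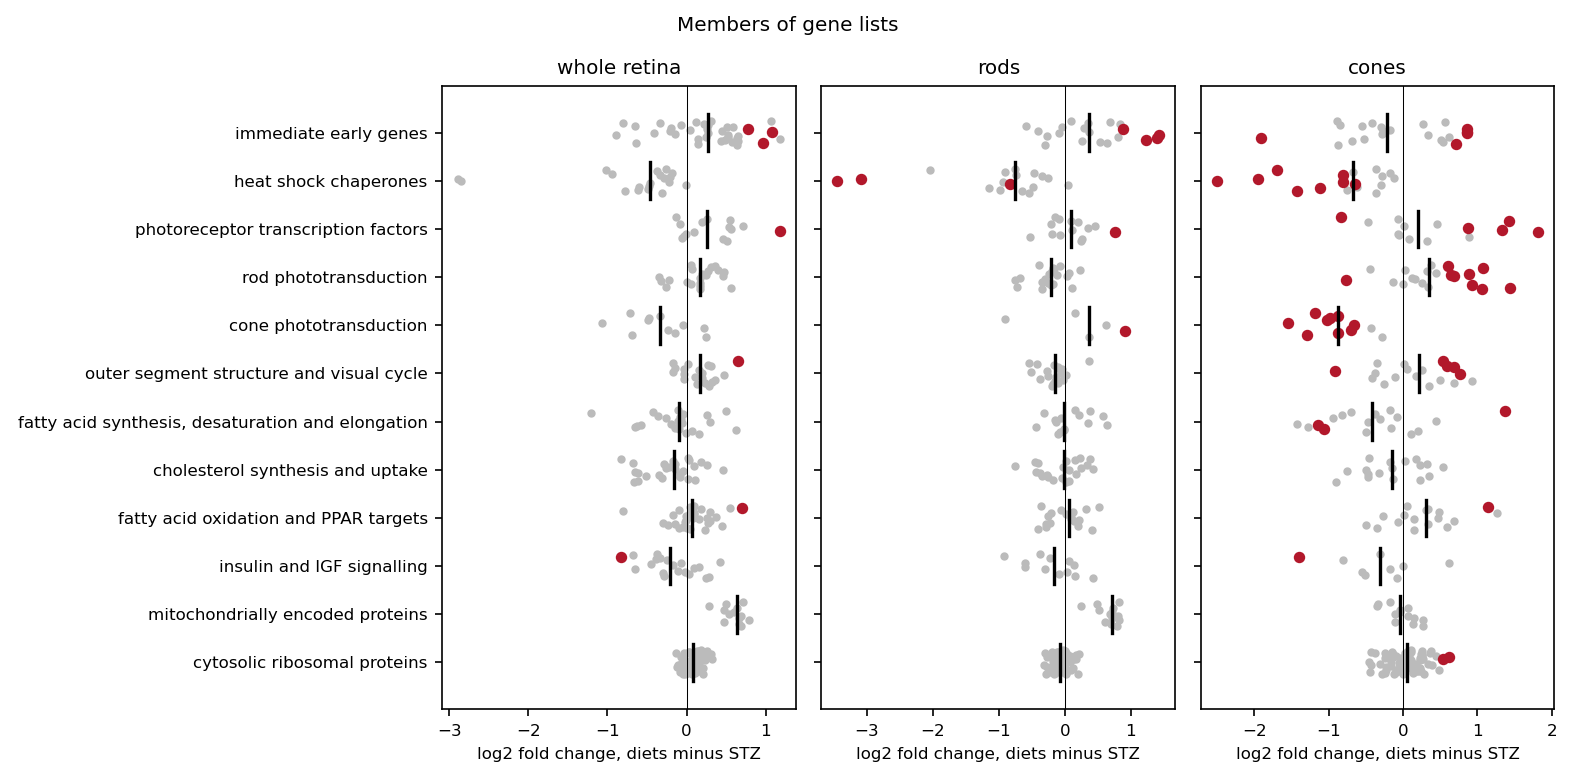
Log2 differences, diets minus STZ, of the tested members of 12 gene lists in the whole retina, rods and cones. Each point is a gene, red points passed the adjusted threshold and black lines are medians. Immediate early genes have 3 red points in the whole retina, all above 0, and heat shock chaperones lie mostly below 0, with a median of -0.46 in the whole retina, -0.76 in rods and -0.67 in cones.

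Among genes of lipid handling, the receptor for fatty acids Ppard rose while few enzymes passed the test. Ppard (chr17:28232700-28301474) was at 31.4, 33.2 and 37.6 CPM in the STZ mice, at 52.6 and 57.2 CPM on the ω-3 diet and at 58.5, 60.3 and 48.3 CPM on the ω-6 diet. The groups did not overlap, and the rise was 1.62-fold (log2 0.70 ± 0.129, adjusted p = 0.0473), with 11.6 to 25.9 CPM in the control mice. It was the 1 called gene of 30 genes of fatty acid oxidation and PPAR targets, whose median was 0.07.

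Tmem86a, Prkab1 and Paqr4 were among the other rises named by size. Tmem86a, an enzyme that breaks down lysoplasmalogens, was at 27.1 to 44.6 CPM in the STZ mice and 65.0 to 79.7 CPM on the diets (log2 0.97, adjusted p = 0.0274). Prkab1, a regulatory subunit of the AMP-activated kinase, was at 59.4 to 88.9 CPM and 122 to 142 CPM (log2 0.85, adjusted p = 0.0274). Paqr4, a member of the receptor family that also holds the adiponectin receptors, was at 53.3 to 59.1 CPM and 83.0 to 120.0 CPM (log2 0.79, adjusted p = 0.0354).

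The enzymes that make long-chain fatty acids and cholesterol lay slightly below 0. Of 23 genes of fatty acid synthesis, desaturation and elongation, 0 were called, 7 had an unadjusted p under 0.05, DESeq2 called 2 lower (Elovl5 and Elovl6), and 17 of the 23 values were negative with a median of -0.09. Of 26 genes of cholesterol synthesis and uptake, 0 were called, 10 had an unadjusted p under 0.05, DESeq2 called 6 lower, and the median was -0.16. Among all 17894 genes tested, 2412 had an unadjusted p under 0.05 and DESeq2 called 180 lower. Elovl6, which lengthens saturated and monounsaturated fatty acids, was at -0.63 (adjusted p = 0.0574) and was named after its values were seen. Of 22 genes of fatty acid uptake and adiponectin receptors 0 were called, with 5 at an unadjusted p under 0.05, 1 called by DESeq2 (Slc27a1) and a median of 0.05. Adipor1, a receptor for adiponectin that photoreceptors need to retain docosahexaenoic acid, had a difference of -0.19 (adjusted p = 0.492). The 13 eicosanoid genes gave 0 calls (2 at an unadjusted p under 0.05, DESeq2 0) and a median of -0.14.

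Receptors for GABA and glutamate were among the largest falls. Gabrr3, a subunit of ionotropic GABA receptors (chr16:59407332-59464504), was at 36.6, 47.1 and 48.2 CPM in the STZ mice, at 17.6 and 20.2 CPM on the ω-3 diet and at 24.7, 23.2 and 21.9 CPM on the ω-6 diet. It was 2.04-fold lower with no overlap (log2 -1.03 ± 0.149, adjusted p = 0.0274), and the control mice had 33.0 to 44.4 CPM. Grik1, a kainate receptor subunit of OFF bipolar cells (chr16:87895900-88290265), was at 77.4, 73.7 and 64.2 CPM in the STZ mice, at 37.9 and 38.4 CPM on the ω-3 diet and at 35.5, 48.4 and 36.5 CPM on the ω-6 diet. It was 1.82-fold lower, again with the groups apart (log2 -0.86 ± 0.131, adjusted p = 0.0274), and the control mice had 56.7 to 78.5 CPM.

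Grik1 is also 1 of 15 bipolar cell markers, of which it alone was called. Of the 15, 14 had negative values and 9 an unadjusted p under 0.05, with a median of -0.50 that was -0.23 with the term for Xist RNA. The 15 markers summed to 1642 to 2078 CPM in the STZ mice and 1102 to 1750 CPM in the mice on the diets, and to 2096 to 2282 CPM in the control mice. Amacrine markers summed to 2239 to 3038 CPM in the STZ mice and 1769 to 2228 CPM on the diets, without overlap, and Müller glia markers to 2141 to 2952 CPM and 1579 to 2505 CPM. Bipolar cells were 29.87% to 33.67% of cells in the control mice and 15.92% to 18.04% in the STZ mice. The part of these marker sums and shares in the falls of Gabrr3 and Grik1, and in their control values, was not tested.

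Tmem267, a transmembrane protein (chr13:119488039-119611059), had the smallest adjusted p of all genes. It was at 39.9, 29.6 and 37.9 CPM in the STZ mice, at 11.5 and 15 CPM on the ω-3 diet and at 14.3, 14.7 and 13.1 CPM on the ω-6 diet. It was 2.61-fold lower without overlap (log2 -1.38 ± 0.154, adjusted p = 0.00778), on 53 or more UMIs in each mouse. The control mice, of the same litter as the STZ mice, had 15.6 to 25.3 CPM. It was the 1 gene still called without STZ replicate 2 and without ω-6 diet replicate 1.

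Genes of insulin signalling and of the circadian output pathway were also among the falls. Irs1, the adaptor that carries the signal of the insulin and IGF1 receptors (chr1:82233101-82291416), was at 32.9, 34.7 and 27.4 CPM in the STZ mice, at 21.3 and 16.7 CPM on the ω-3 diet and at 15.4, 16.1 and 19.5 CPM on the ω-6 diet. It was 1.78-fold lower without overlap (log2 -0.83 ± 0.157, adjusted p = 0.0480), and the control mice had 13.6 to 16.7 CPM. Pik3r3, a regulatory subunit of the phosphoinositide 3-kinase that binds such adaptors, was at 111 to 126 CPM in the STZ mice and 61.9 to 74.3 CPM on the diets (log2 -0.80, adjusted p = 0.0273).

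Of 20 genes of insulin and IGF signalling, 1 fell (Irs1) and none rose, with a median of -0.21, and DESeq2 called Irs1 and Irs2. Irs2, named after its values were seen, was at -0.68 (adjusted p = 0.0658), Igf1 at -0.65 (adjusted p = 0.192) and Igf1r at 0.09 (adjusted p = 0.822). Hlf, a transcription factor under control of the clock (chr11:90336536-90390895), was at 140.1, 120.1 and 122 CPM in the STZ mice, at 62.7 and 92.1 CPM on the ω-3 diet and at 60.6, 71.2 and 67.0 CPM on the ω-6 diet. It was 1.8-fold lower without overlap (log2 -0.85 ± 0.141, adjusted p = 0.0311), against 61.5 to 78.5 CPM in the control mice. It was the 1 call among 20 circadian clock genes, of which 16 had negative values, with a median of -0.20.

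The remaining falls named by size had several roles. Ptprt, a receptor tyrosine phosphatase at synapses, was at 55.8 to 80.4 CPM in the STZ mice and 32.0 to 43.9 CPM on the diets (log2 -0.91), and Diras2, a small GTPase, at 109 to 142 CPM and 62.2 to 75.4 CPM (log2 -0.80). Lgr5, a receptor for R-spondins that marks a set of amacrine cells, was at 49.0 to 50.4 CPM and 24.9 to 33.2 CPM (log2 -0.73). Cpeb4 and Cpeb2, which bind messenger RNA tails and set their translation, fell by 0.80 and 0.73. Among the remaining rises were Nrtn, a survival factor of the GDNF family, at 26.6 to 31.8 CPM in the STZ mice and 46.5 to 62.7 CPM on the diets (log2 0.87), E2f4, a repressor of cell cycle genes (log2 0.80), and Cep250, a centrosome protein (log2 0.78). Klc3, a kinesin light chain, and Ercc2, a DNA helicase of transcription and repair, each rose by 0.73, but the genes overlap on chromosome 7 and their reads may not be separable.

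The genes named by the study for vessel growth and cell survival did not pass the test. Vegfa, the main growth signal for retinal vessels, was at -0.30 (adjusted p = 0.379), its receptor Kdr at -0.08 (adjusted p = 0.891) and the matrix protein Sparc at -0.23 (adjusted p = 0.606). The survival and death genes Bcl2, Bcl2l1 and Bcl2l11 were at 0.24, 0.20 and -0.29, and Myc was at -0.44. Of 19 regulators of angiogenesis 0 were called, 4 had an unadjusted p under 0.05, DESeq2 called 0, and the median was -0.23, which was -0.01 with the term for Xist RNA. Of 22 glycolysis and 20 hypoxia genes 0 were called, with 4 and 3 at an unadjusted p under 0.05, medians of -0.05 and -0.09, and 1 call each by DESeq2. Over all 17894 genes tested, 2412 had an unadjusted p under 0.05 and DESeq2 called 291. Nnt, a mitochondrial transhydrogenase gene that differs between C57BL/6 substrains, was at 0.10 (adjusted p = 0.925).

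The higher and the lower called genes differed from each other in base composition and length, which the choice of mice did not use. Transcripts of the 23 higher genes had a median GC content of 57.8% and a median length of 2091 bases, those of the 24 lower genes 45.2% and 5008 bases, and all genes tested 48.8% and 2919 bases. With GC content and length as a correction, chosen after the data were seen, 41 genes were called, 12 higher and 29 lower, and with all 11 mice in 1 fit 43 were called, 9 higher and 34 lower. The split of higher and lower calls moved under both.

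Each diet was also set against the same 3 STZ mice in 1 fit with 3 groups. The ω-3 diet gave 6 calls of 18573 genes (0.0323%), 3 higher and 3 lower (0.0162% each), and the ω-6 diet 44 calls (0.237%), 24 higher (0.129%) and 20 lower (0.108%). Unadjusted p was under 0.05 in 1987 and 2807 genes. Both sets of values rest on the same STZ mice, and the ω-3 diet had 2 mice against 3. The 6 calls of the ω-3 diet were Egr1, Ier2 and Btg2 (higher) and Gabrr3, Tmem267 and Lhx1os (lower), of which Lhx1os falls outside the rule for named genes.

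The values of single genes are given side by side. They share the STZ mice, and the genes were chosen for a difference of both diets together. Nr2e3 was 1.16 ± 0.195 on the ω-3 diet and 1.196 ± 0.180 on the ω-6 diet, Ier2 1.18 and 1.01, Btg2 1.09 and 0.88, and Tmem267 -1.43 and -1.35. Gabrr3 was at -1.21 and -0.91 and Grik1 at -0.91 and -0.83. Impdh1 was at 0.48 and 0.79, and Cep250 at 0.96 and 0.65. A direct test of the ω-6 against the ω-3 diet called 0 of 18573 genes (0%), with 1525 at an unadjusted p under 0.05, a smallest adjusted p of 0.131 and 0 calls by DESeq2. The mice of both diets were littermates, and this test at 3 against 2 mice does not show that the diets act alike.

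**Figure D3:**
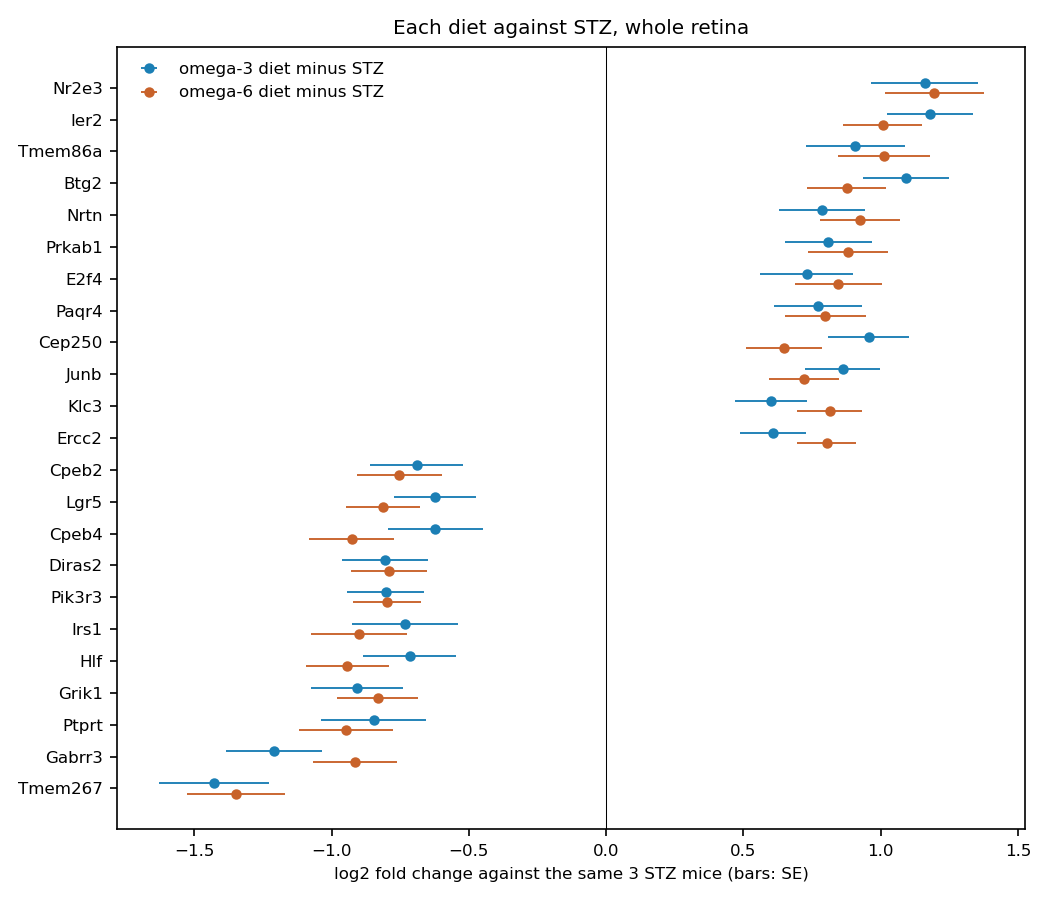
Log2 differences ± SE from the same 3 STZ mice for the ω-3 diet (n = 2) and the ω-6 diet (n = 3), for the 12 largest rises and 11 of the 12 largest falls. Nr2e3 was at 1.16 and 1.196 and Tmem267 at -1.43 and -1.35. The genes were chosen because all 5 mice on the diets lay on one side of the STZ mice, which fixes that both points of a gene lie on the same side of 0.

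Cells were then grouped by clustering, and the same test was run on the sums within 5 classes named from their markers. These sums are parts of the whole-retina sums in which the 47 genes were called, so that a shared direction is no independent result. Of the 47 genes, 33 were tested in rods and 5 were called (Tmem86a, Nr2e3, Junb, Ier2 and Tmem267). In cones 33 were tested and 19 called, and in bipolar cells 42 and 3 (Nr2e3 and Tmem267 among them). In amacrine cells the numbers were 40 and 0, and in Müller glia 26 and 1 (Nr2e3).

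Within rods, 4 immediate early genes rose and 3 heat shock genes fell. Of 10405 genes tested, 23 were called (0.221%), 10 higher (0.0961%) and 13 lower (0.125%), all 23 without overlap against 7.66% of genes tested. With a term for Xist RNA 1 gene was called in rods, Ier2, and 821 had an unadjusted p under 0.05. Ier2 was at 54.1, 62.4 and 51.0 CPM in rods of the STZ mice, at 189 and 155 CPM on the ω-3 diet and at 153, 125 and 120.1 CPM on the ω-6 diet (log2 1.43 ± 0.194, adjusted p = 0.00531). Fos was at 150.3, 127 and 187 CPM in the STZ mice, at 642 and 472 CPM on the ω-3 diet and at 261, 338 and 333 CPM on the ω-6 diet (log2 1.39, adjusted p = 0.0212). Egr1 was at 485, 531 and 862 CPM in the STZ mice, at 2027 and 1799 CPM on the ω-3 diet and at 1173, 1078 and 1270 CPM on the ω-6 diet (log2 1.23, adjusted p = 0.0212). For Fos and Egr1 both mice on the ω-3 diet were above the 3 mice on the ω-6 diet, which were above the STZ mice. Of 20 immediate early genes tested in rods, 14 had positive and 6 negative values, with a median of 0.36. With Junb (log2 0.88, adjusted p = 0.0352), 4 of the 20 rose and none fell. Without STZ replicate 1 or without STZ replicate 2 only Ier2 of these passed, and without STZ replicate 3 Ier2 and Egr1.

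In rods 3 of 17 heat shock chaperones fell, Hsp90aa1, Hspa1a and Hspa1b, with a list median of -0.76. Hsp90aa1, an inducible form of Hsp90, was at 3649, 2275 and 2589 CPM in the STZ mice, at 1472 and 1725 CPM on the ω-3 diet and at 1558, 1624 and 1586 CPM on the ω-6 diet (log2 -0.83, adjusted p = 0.0212). The groups were apart, with STZ replicate 1 the highest. Hspa1a was at 632, 76.5 and 48.9 CPM in the STZ mice and 14.1 to 35.5 CPM on the diets (log2 -3.45, adjusted p = 0.0189). Without STZ replicate 1 none of the 17 was called, the median was -0.42, and Hspa1a was at -1.39 (adjusted p = 0.109). Hspa1a and its near-identical copy Hspa1b (log2 -3.08) may share reads.

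The other named genes of rods were of several kinds. Gm42418, which overlaps the ribosomal RNA repeat, was at 5.32 to 11.9 CPM in the STZ mice and 22.2 to 70.5 CPM on the diets (log2 2.32). Tmem267 was lower by -1.33 on the log2 scale (adjusted p = 0.0349). Nr2e3, 1 of the 13 markers used to name the class, was at 1948, 2104 and 2904 CPM in rods of the STZ mice, 3592 and 3910 CPM on the ω-3 diet and 3826, 4382 and 3940 CPM on the ω-6 diet, given as a description. The 13 rod markers together summed to 39630 to 55620 CPM and 40440 to 50070 CPM in the same rods. The count of calls in rods was 27, 8 and 8 without STZ replicates 1, 2 and 3, 12 and 51 without ω-3 diet replicates 1 and 2, and 6, 7 and 22 without ω-6 diet replicates 1, 2 and 3.

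The cone cluster gave the most calls, and its cells differed in rod and cone marker RNA between the groups. Of 8626 genes tested, 287 were called (3.33%), 128 higher (1.48%) and 159 lower (1.84%), 264 of them without overlap against 13.8% of genes tested. With a term for Xist RNA 162 genes were called. Cells with more UMIs of the 13 rod markers than of the 10 cone markers were 38.05%, 46.88% and 39.55% of the cluster in the STZ mice. They were 80.98% and 82.71% on the ω-3 diet and 81.88%, 82.14% and 65.12% on the ω-6 diet. The rod markers summed to 17140 to 23940 CPM against 30520 to 37630 CPM, the cone markers to 18280 to 21070 CPM against 9596 to 11750 CPM, and median UMIs per cell were 1880 to 2048 against 3174 to 4649. The cells of the cluster were therefore not alike in marker RNA in the 2 groups. Other kinds of cells, free rod RNA and droplets with more than 1 cell were not told apart. The genes that placed the cells in the cluster are a description only. Nr2e3 was at 656, 1007 and 861 CPM in the STZ mice and 2606 to 3616 CPM on the diets, and the cone opsin Opn1mw at 1206, 1686 and 1591 CPM and 269 to 709 CPM.

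**Figure D4:**
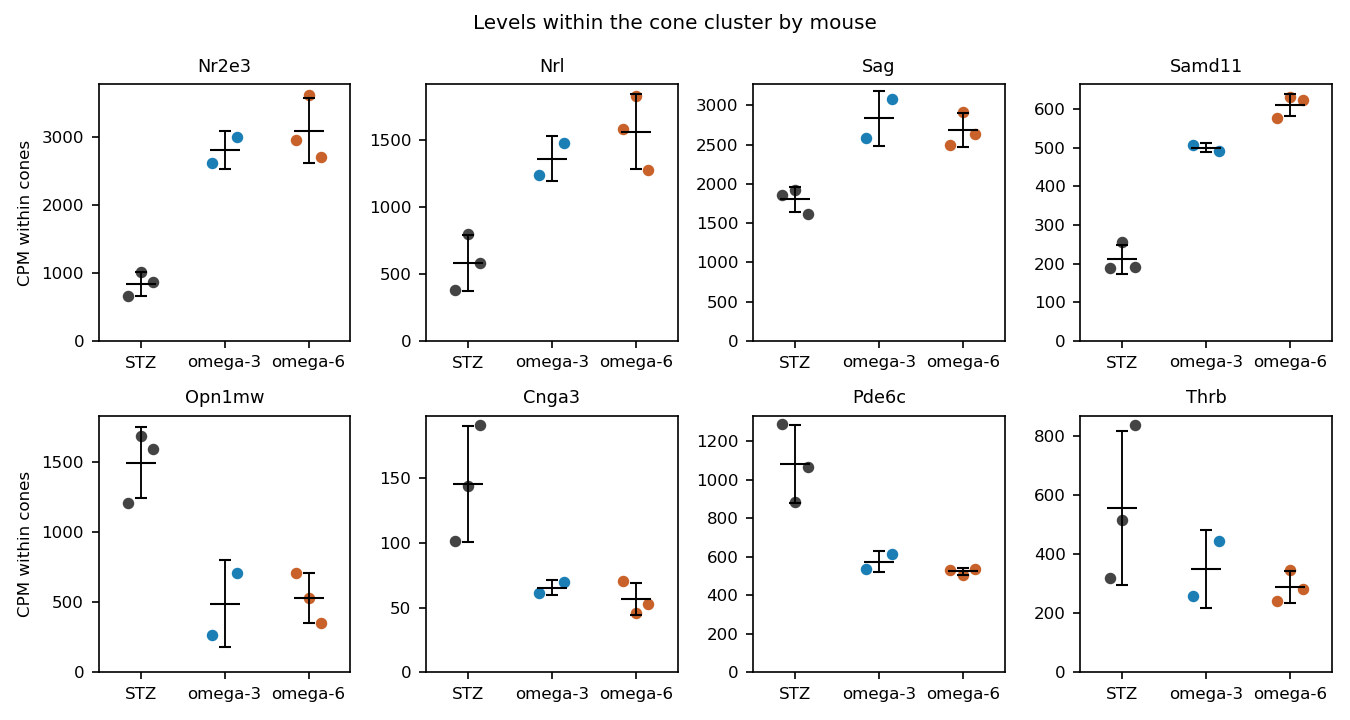
CPM of 8 photoreceptor genes within the cone cluster in each of the 8 mice, with axes from 0, points for mice and bars for the mean ± SD. The rod genes Nr2e3 (656 to 1007 against 2606 to 3616 CPM) and Nrl were higher and the cone genes Opn1mw (1206 to 1686 against 269 to 709 CPM) and Cnga3 lower in the mice on the diets. These genes helped to place the cells in the cluster.

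Outside the markers, lipid and insulin genes of the same lists differed in the cone cluster. The part of the unlike rod and cone marker RNA of its cells in these values, here and in the next paragraph, was not tested. Of 18 genes of fatty acid synthesis, desaturation and elongation, 1 rose and 2 fell, with a median of -0.42. Srebf1, the transcription factor that drives fatty acid synthesis, was at 35.6, 48.2 and 26.2 CPM in the STZ mice, at 96.7 and 80.6 CPM on the ω-3 diet and at 80.8, 104 and 106 CPM on the ω-6 diet (log2 1.37, adjusted p = 0.0112). Elovl2, which lengthens polyunsaturated fatty acids on the way to docosahexaenoic acid, was at 316, 318 and 359 CPM in the STZ mice, at 197 and 141 CPM on the ω-3 diet and at 133, 129 and 200.2 CPM on the ω-6 diet (log2 -1.06, adjusted p = 0.00203). Elovl6 was at 168, 183 and 161 CPM in the STZ mice, at 65.1 and 93.4 CPM on the ω-3 diet and at 76.8, 59.3 and 94.4 CPM on the ω-6 diet (log2 -1.14, adjusted p = 0.00395). In each of the 3 genes the groups did not overlap. Elovl2 was at -0.01 (adjusted p = 0.993) in rods.

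Irs2, an adaptor of the insulin receptor, was at 219, 154 and 217 CPM in the cone cluster of the STZ mice, at 86.2 and 84.3 CPM on the ω-3 diet and at 58.6, 52.1 and 94.4 CPM on the ω-6 diet (log2 -1.40, adjusted p = 0.000921). Slc16a1, a lactate transporter, fell by 1.18 (adjusted p = 0.00222), and Ppard rose by 1.14 (adjusted p = 0.0203). Ndrg1, a hypoxia target, was at 204, 294 and 191 CPM in the STZ mice, at 556 and 681 CPM on the ω-3 diet and at 626, 813 and 573 CPM on the ω-6 diet (log2 1.51, adjusted p = 4.47e-05). Tuba1a, a tubulin of growing neurons, was at 168, 207 and 258 CPM in the STZ mice and 553 to 819 CPM on the diets (log2 1.61, adjusted p = 3.73e-05). All of these groups were apart. Of 17 heat shock chaperones 8 fell, with a median of -0.67, and without STZ replicate 1 there were 2 (Hspa8 and Hsph1) with a median of -0.42. Of 22 immediate early genes 4 rose (Ier3, Btg2, Junb and Ier2) and 1 fell (Egr3), with 10 positive and 12 negative values and a median of -0.22. The largest changes by the rule for named genes were Xist, Gm48617 (log2 2.86) and Proser2 (2.45) among the rises and Gabrr3 (-2.23), Rbm12b2 (-2.04) and 1190002N15Rik (-2.03) among the falls.

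The count fell sharply when cells with more rod than cone marker UMIs were left out, an alternative chosen after the data were seen. With 51 to 81 cells per STZ mouse and 23 to 31 per mouse on the diets, 3 genes were called, all higher (Tuba1a, Tsix and Xist). In the whole retina Tsix, like Xist, was high only in the 3 mice with Xist RNA (611.6 to 652.3 CPM, against at most 0.305 CPM). The rod and cone markers were left out of this fit. Of the 287 calls, 164 were tested in it and 149 had the same direction. The stricter cells are part of the cells in which the 287 were called, so that a shared direction is no independent result. Tuba1a was at 64.0 to 264 CPM against 338 to 870 CPM in those cells. None of the 8 tested genes of fatty acid synthesis passed, all 8 values were negative, and their median was -0.35. The number of calls in the whole cluster was 193, 158 and 128 without STZ replicates 1, 2 and 3 and 151 to 311 without a mouse on the diets, with 151 without ω-6 diet replicate 2.

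Bipolar cells gave 14 calls of 10433 genes (0.134%), 11 higher (0.105%) and 3 lower (0.0288%), without overlap in all 14 against 7.41% of genes tested. Tmem267 fell by 1.77 and Tmem106b, a lysosomal membrane protein, by 0.91. Grik1 is a marker used to name the class.

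The rises in bipolar cells were mostly rod genes. Nr2e3 was at 77.2, 97.5 and 174 CPM in the STZ mice, at 478 and 473 CPM on the ω-3 diet and at 518, 356 and 324 CPM on the ω-6 diet (log2 1.88, adjusted p = 0.000678). Nrl, the factor that sets rod fate, was at 77.2, 85.8 and 89.8 CPM in the STZ mice, at 212 and 221 CPM on the ω-3 diet and at 305, 241 and 200.1 CPM on the ω-6 diet (log2 1.48, adjusted p = 0.000678). Both genes were apart between the groups. Of 18 rod phototransduction genes 5 rose (Pdc, Rcvrn, Pde6g and Sag among them). The summed 13 rod markers were 2112 to 3026 CPM in bipolar cells of the STZ mice and 3426 to 5393 CPM on the diets, all 13 with positive values, against 39630 to 55620 CPM in rods. The part of rod RNA in droplets of other cells was not tested. Egr1 was the 1 of 21 immediate early genes called (log2 1.30). The count was 25, 3 and 3 without STZ replicates 1, 2 and 3, 9 and 41 without ω-3 diet replicates 1 and 2, and 3, 4 and 11 without ω-6 diet replicates 1, 2 and 3.

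Müller glia gave 4 calls of 7164 genes (0.0558%), 2 higher and 2 lower (0.0279% each), 3 of them without overlap against 6.1% of genes tested. Zswim6 was at 306, 138 and 145 CPM in the STZ mice, at 24.3 and 40.3 CPM on the ω-3 diet and at 48.2, 32.8 and 68.8 CPM on the ω-6 diet (log2 -2.27, adjusted p = 0.00905), and the groups were well apart. Hspa1b was at 1490, 74.1 and 29.1 CPM in the STZ mice and 3.71 to 35.9 CPM on the diets, so that the groups overlapped and STZ replicate 1 carried the value (log2 -4.79, adjusted p = 0.0259). The rises were the photoreceptor genes Nr2e3, at 93.6 to 170.2 CPM and 274 to 678 CPM, and Rpgrip1, of the photoreceptor cilium (log2 1.59, adjusted p = 0.0259). The rod markers summed to 1086 to 3085 CPM in Müller glia of the STZ mice and 3240 to 6787 CPM on the diets. The count was 19, 3 and 23 without STZ replicates 1, 2 and 3, 5 and 1 without ω-3 diet replicates 1 and 2, and 6, 2 and 4 without ω-6 diet replicates 1, 2 and 3.

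Amacrine cells gave 0 calls of 12064 genes (0%), with 1094 at an unadjusted p under 0.05, a smallest adjusted p of 0.0663 and 12 calls by DESeq2. Here 6.11% of genes did not overlap between the groups, and the rod markers summed to 916.6 to 1492 CPM in the STZ mice and 1028 to 2797 CPM on the diets. Without STZ replicate 1 or without ω-6 diet replicate 3 there were 18 calls each.

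**Figure D5:**
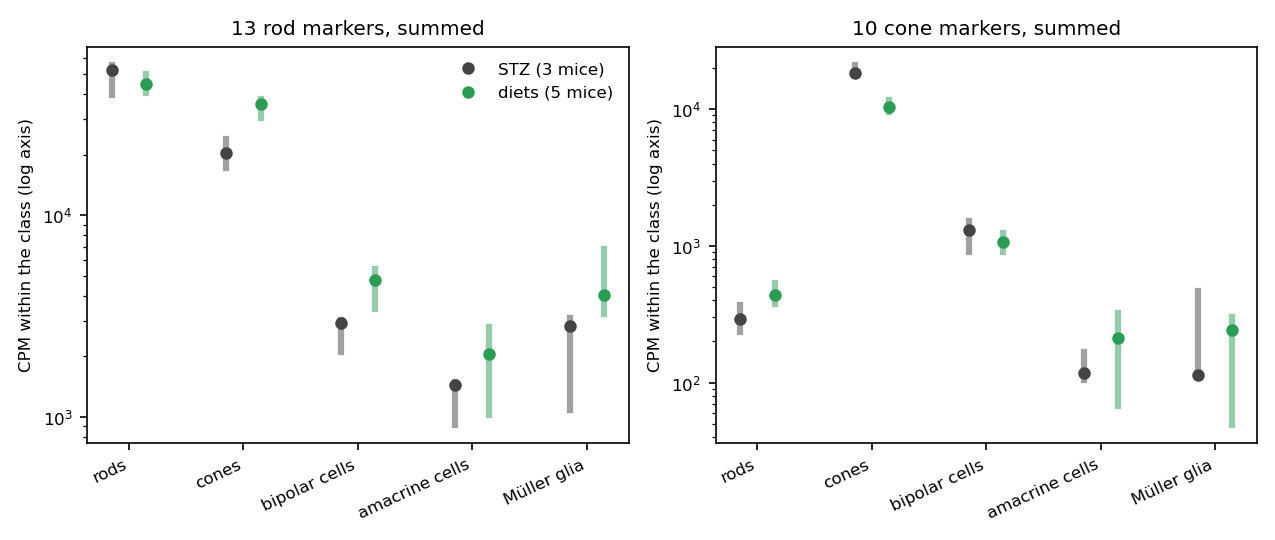
Summed CPM of the 13 rod markers and 10 cone markers in each cell class, on a log axis, as the median and range over the 3 STZ mice and the 5 mice on the diets. Rod marker RNA was higher on the diets in cones, bipolar cells and Müller glia without overlap (3426 to 5393 against 2112 to 3026 CPM in bipolar cells), while in rods the ranges overlapped.

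The shares of the classes did not differ past the threshold. Rods were 35.8% ± 6.39 of cells on the diets (SD, n = 5) and 42.2% ± 5.46 in the STZ mice (SD, n = 3), for which the exact permutation test over the 56 splits of the mice, two-sided, gave p = 0.214. Bipolar cells were 14.7% ± 2.10 and 17.0% ± 1.06 (exact p = 0.143), amacrine cells 12.6% and 14.5% (exact p = 0.214) and Müller glia 7.34% and 6.66% (exact p = 0.714). Clusters left without a name held 21.2% ± 3.50 and 11.8% ± 2.36 of cells, with no overlap and the smallest p that 56 splits allow (exact p = 0.0357, adjusted p = 0.214). In these clusters 89.01% to 97.9% of the cells of each mouse had more rod than cone marker UMIs. That does not name the cells, since rod markers also summed higher than cone markers in other classes. On the diets they were at 1028 to 2797 against 67.17 to 324.2 CPM in amacrine cells and 3240 to 6787 against 49.14 to 301.1 CPM in Müller glia. The leading genes of an unnamed cluster included Slc5a7 and Slc18a3, and those of another Gm42418 and mt-Rnr1. The shares of the named classes leave all these cells out.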

How the data were processed

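UMI counts per gene and cell were used as the authors deposited them, without normalization. With umis, part of bcbio-nextgen, the authors read out barcodes and UMIs, excluded barcodes with fewer than 500 reads, and assigned reads with Rapmap to transcripts of GRCm38 (GENCODE M23). The submitters' processing notes name the builds mm10 and GRCm38.p6. Here, counts of cells with more than 300 genes were summed per mouse. The default filter of edgeR removed lowly counted genes, and sums were scaled by TMM. Groups were compared with edgeR's quasi-likelihood test (edgeR 4.0.16, R 4.3.3) with Benjamini-Hochberg adjustment over all genes tested and a threshold of 0.05. CPM of genes are TMM-scaled and CPM of marker sums are not. Coordinates, GC content and length came from GENCODE M21 (GRCm38). Classes came from Seurat 5.3.0 on all 11 mice (genes in at least 10 cells, 2000 variable genes, 75 components, resolution 0.2), named from markers among the 10 leading genes, and were tested where every mouse had at least 10 cells. No doublets were removed. The fit was tested on simulated data.

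Genes were named by a rule: the 12 largest rises and falls among called genes at a mean of at least 20 CPM without overlap, up to 2 called rises and falls per list at 5 CPM or more, the single genes named with the study, and 3 rises and falls per class. The members and lists were chosen with earlier results of these data known. The groups share replicate numbers in the titles, which were not taken as pairs. Deviations of same-numbered mice correlated at -0.012 to 0.263 and those of other mice at -0.263 to 0.199. This does not settle whether the numbers mark pairs, since the 2 mice of the ω-3 diet deviate in opposite ways by construction. Whether replicates were handled separately is not stated, so p-values measure the spread between these mice. The alternatives tried were scaling by the median of ratios, DESeq2 1.42.0, other filters, thinned sums, a replicate block, all 11 mice in 1 fit and each mouse left out. Added after the data were seen were a GC and length correction, cells of named clusters, a term for Xist RNA, mice without Xist RNA (none above 100 CPM) and the stricter cone cells. Counting limits and depth set the precision of low genes, since the shallowest sum held 2563064 UMIs. Some genes were tested with all others but are not reported here.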

Additional observations from a re-analysis of the deposited data

Results flagged for a closer look

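Of 82 values tested in the 5 mice on the diets, 3 had 1 mouse far from the other 4, and chance marks about 1 in 20 such groups. The mouse was the highest in each. In the whole retina it was ω-6 diet replicate 2 for Grik1 (48.37 CPM), ω-6 diet replicate 1 for Tulp1 (352.0 CPM) and ω-3 diet replicate 1 for Kdr (308.1 CPM). For Grik1 this mouse lay nearest to the STZ mice, and for Tulp1 farthest from them.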

How the results depend on the processing

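The groups did not overlap in the 47 genes and the alternatives reuse the same mice, so that a kept direction is no independent result. The 47 genes called between the diets and STZ kept their direction in every alternative in which they were tested (46 of them in the thinned sums), while their number moved. It was 291 with DESeq2, 153 with cells of more than 500 genes, 29 with thinned sums, 15 with cells of named clusters, 0 with a term for Xist RNA, 0 against a log2 fold of 0.5 (383 at an unadjusted p under 0.05), and 39 with mice without Xist RNA. Leaving out 1 mouse gave 1 to 116. Of 68 called genes named, followed over 1358 combinations of gene and alternative, 731 stayed past the threshold, 627 kept their direction without passing and 0 reversed. The choice of genes without overlap largely fixes that none reversed. Tmem267 passed in 20 of 22 alternatives, Ier2 and Pik3r3 in 17, Nr2e3 in 16.

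With the replicate block the calls were 77 for the diets against STZ, 140 for the ω-6 diet, 6 for the ω-6 against the ω-3 diet, 31 in rods, 309 in cones, 14 in amacrine cells, 19 in Müller glia and 42 in bipolar cells. For the ω-3 diet the block gave 6 calls, DESeq2 67, a term for Xist RNA 29, mice without Xist RNA 34, and thinned sums, all 11 mice in 1 fit and cells of named clusters 0 each, with 0 to 7 without 1 mouse. For the ω-6 diet DESeq2 gave 308, cells of more than 500 genes 157, mice without Xist RNA 22, and the GC and length correction, cells of named clusters and the term for Xist RNA 0 each, with 0 to 53 without 1 mouse. The ω-6 against the ω-3 diet gave 0 to 7 without 1 mouse and 12 with mice without Xist RNA, where groups of 1 and 1 were assumed to vary like the STZ mice.

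DESeq2 called 54 genes in rods, 39 in bipolar, 12 in amacrine and 22 in Müller cells. Without the filter on low counts there were 131, 176, 129 and 75 in the same order. Thinned sums gave 35 in bipolar, 3 in amacrine and 13 in Müller cells. A term for Xist RNA gave 1 in rods, 162 in cones, 3 in amacrine cells and 9 in Müller glia, and mice without Xist RNA 7, 186, 9 and 7. Cone cells with no more rod than cone marker UMIs gave 3. Leaving out 1 mouse gave 6 to 51 in rods, 128 to 311 in cones, 1 to 23 in Müller glia, 0 to 18 in amacrine cells and 3 to 41 in bipolar cells. Differences that were never called changed sign in some fits. Sparc was 0 with the term for Xist RNA and with mice without Xist RNA. Without 1 mouse, Kdr ran from -0.26 to 0.04 and Myc from -0.81 to 0.22, both highest without STZ replicate 1. Nnt ran from -0.11 (without STZ replicate 2) to 0.46, with 0 without STZ replicate 3 and -0.07 without ω-3 diet replicate 1, and it was -0.12 with thinned sums and -0.34 in both analyses of Xist RNA. The causes were not tested. With cells of more than 500 genes, bipolar cells were 16.02% on the diets and 19.6% in the STZ mice (exact p = 0.0357, adjusted p = 0.107).

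Litter and diet cannot be told apart, and 3 of 5 mice on the diets against 0 of 3 STZ mice had Xist RNA, so that sex differed in part with diet. The STZ sums were the shallower, and in them a call at low CPM rests on few UMIs. Small shifts of whole lists without calls cannot be told from a shift in scaling or composition.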

Other observations

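Markers of cells outside the 5 classes tested varied widely between mice. The 5 blood markers summed to 5.994 to 2032 CPM on the diets and 18.07 to 74.13 CPM in the STZ mice, with ω-6 diet replicates 2 and 3 the highest. Retinal pigment epithelium markers summed to 223.4 to 347.2 CPM and 256.1 to 740.3 CPM, endothelial markers to 262.6 to 431.2 CPM and 306.3 to 479.9 CPM, and microglia markers to 57.39 to 188.3 CPM and 81.16 to 142.7 CPM. The ranges overlapped for these 4 lists. The 5 astrocyte markers summed to 100.5 to 165.2 CPM on the diets and 165.8 to 211.9 CPM in the STZ mice, and no single tested marker of them was called.

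Retinal ganglion cell markers, which label the cells that send the optic nerve, summed to 198.2 to 452.9 CPM on the diets and 103.7 to 258.3 CPM in the STZ mice. Of the 8 markers 7 had positive values with a median of 0.86, 3 had an unadjusted p under 0.05 and 0 were called by either tool. Pericyte markers, of the cells that wrap capillaries, summed to 16.27 to 116.5 CPM and 77.72 to 90.52 CPM, and horizontal cell markers to 137.7 to 190.3 CPM and 188.4 to 229.5 CPM.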
